A study of Mus musculus with 9 samples.

Results

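The comparison described here set ROC6 cells carrying a Csmd3 knockout made with guide 2 against ROC6 control cells. Its members were the libraries labelled guide 2 knockout and control, 3 of each, which is 6 of the 9 libraries in the series. Genes were taken if their symbol occurred once in the table and their mean over these 6 libraries was at least 1 FPKM (fragments per kilobase of transcript, scaled to the library's mapped fragments, so a level per length), which left 6920 of 15446 uniquely named genes. The mean was 1.001 FPKM for Gm12178, just above that limit, and 0.9996 FPKM for Gm7285, just below it.

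ROC6 is a mouse oral squamous line; the labels call its cells cancer cells and the series title calls them premalignant. The groups were CSMD3 knockout with guide 1, CSMD3 knockout with guide 2 and WT Control, all in DMEM with serum and antibiotics and with no treatment named. The design text speaks of clone 1 and clone 2, so the guide 2 libraries may come from 1 clone, and what belongs to that clone cannot be told apart from the loss of Csmd3. The labels do not state what a replicate is, so the spread behind each p-value may be technical only. Polyadenylated RNA was sequenced, the values were deposited as FPKM, and depth is unknown. CSMD3 is a large transmembrane protein with many CUB and sushi domains, named for these repeats, and its gene is often mutated in squamous carcinomas. A guide RNA directs Cas9 to cut one site, and each guide has its own possible off-target sites, which is why knockouts are usually made with more than 1. The level of Csmd3 was not analysed here, and the knockout labels were therefore taken as given.

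Libraries of 1 group resembled each other closely: Pearson's r over the tested genes was 0.99 to 0.993 within guide 2 and within control, and 0.913 to 0.924 between them. The deposited rows were not a neutral sample of genes. In 15441 of the 15446 uniquely named rows, and in all 6920 tested, the means of guide 1 and guide 2 were both above or both below the control mean. A shared direction of the 2 knockouts is therefore a property of the table, and the 2 comparisons also share their 3 control libraries. The squamous label was checked against 20 markers: 12 had a row and 6 were tested. Their summed level was 197 to 206 FPKM in control and 140 to 144 FPKM with guide 2, most of it from Perp, a desmosome and p53-linked membrane protein, and from Pitx1, a homeodomain factor of the oral epithelium. Krt17 and Col17a1 were under 1 FPKM, while the mesenchymal filament gene Vim was at 512, 491 and 508 FPKM in control. Vim was not among the 20 markers, and levels of the markers without a row are not known here.

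With guide 2, 4529 of 6920 genes passed the test (limma, Benjamini-Hochberg adjusted p under 0.05), which is 65.4%. Higher levels were called for 2176 genes (31.4%) and lower levels for 2353 (34.0%). Most differences were small: 58.4% of the called genes changed by less than 0.5 on the log2(FPKM + 1) scale, on which all fold changes below are given. A change of at least 1 log2 unit was called upward for 282 genes (4.08%) and downward for 298 (4.31%). The libraries of both groups did not overlap for 4740 genes (68.5%). The median over all tested genes was -0.03. Against guide 1, 3739 genes differed (54.0%). These shares are the background against which each gene list below is to be read.

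The largest rise was in S100a4, a small calcium-binding protein that binds non-muscle myosin and is known from motile and mesenchymal cells. Control libraries held 1.21, 2.85 and 3.21 FPKM, and the level was 257, 202 and 183 FPKM with guide 2. No guide 2 library came near a control, and the mean was 88.2 times as high (log2 fold change 6.01, SE 0.212, adjusted p = 5.3e-09). The guide 1 mean was 41.6 FPKM, lower than with guide 2 by 2.32 log2 units (adjusted p = 8.61e-06).

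Il1rl1, which encodes the receptor ST2 for interleukin 33, was the next. Its control libraries gave 6.18, 6.47 and 6.49 FPKM and its guide 2 libraries 228, 237 and 243 FPKM (log2 fold change 5.00, SE 0.0425, adjusted p = 3.37e-13). The ligand gene Il33 rose with it, from 0.0807, 0.204 and 0.134 FPKM to 7.63, 9.14 and 7.21 FPKM (log2 fold change 2.98, adjusted p = 4.15e-09). Receptor and ligand were thus both high in all 3 guide 2 libraries. In guide 1 the receptor reached 71.0 FPKM and the ligand 0.336 FPKM.

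Other genes with the largest rises code for proteins of several kinds. Actg2, smooth muscle gamma actin, went from 8.21, 7.72 and 6.66 FPKM to 218, 224 and 217 FPKM. Eno3, the muscle enolase of glycolysis, went from 13.6, 17.0 and 15.1 FPKM to 197, 197 and 194 FPKM. Cav1, the coat protein of caveolae, went from 5.78, 5.89 and 7.72 FPKM to 80.3, 81.9 and 81.5 FPKM. In each of these genes the lowest guide 2 library was far above the highest control. Gap43, a growth cone protein of neurons, rose from 0.607, 0.222 and 0.233 FPKM to 13.7, 13.4 and 13.9 FPKM. Ogn, a small leucine-rich proteoglycan, rose from at most 0.247 FPKM to at least 10.8 FPKM. Msln, the surface protein mesothelin, rose by 3.22, and Cbr2, a carbonyl reductase, by 3.25. Ptgs2, Ntn1 (the guidance protein netrin 1), Myl9, Hspa1b, Aqp5 (a water channel of secretory epithelia) and Cthrc1 (a secreted protein of remodelling tissue) completed the 15 largest rises, at 2.71 to 3.21.

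The largest fall was in Igf2, the fetal growth factor. Control libraries held 45.7, 46.0 and 38.2 FPKM and guide 2 libraries 0.0374, 0 and 0.0244 FPKM (log2 fold change -5.44, SE 0.0749, adjusted p = 1.43e-11). Guide 1 libraries kept a mean of 19 FPKM, a difference between the knockouts of -4.29 (adjusted p = 1.5e-10). H19, the imprinted non-coding RNA beside Igf2, fell from 15.8, 14.8 and 14.5 FPKM to 0.126, 0.151 and 0.0345 FPKM, and here guide 1 was low too, at 0.384 FPKM. Neighbouring Igf2 and H19 therefore differed in how far guide 1 lay from control.

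Eya2, a transcriptional coactivator of homeodomain factors, was at 16.0, 15 and 14.9 FPKM in control and listed at 0 in every guide 2 library. Ildr2, an immunoglobulin-like receptor, was at 10.7, 10.6 and 9.35 FPKM in control and likewise listed at 0. No fold change is given for either. Pcsk6, a proprotein convertase, fell from 20.1, 17.9 and 20.4 FPKM to 0.181, 0.193 and 0.323 FPKM (log2 fold change -4.05). Cdh3, the P-cadherin of basal epithelium, fell from 14.2, 14.5 and 15.5 FPKM to 0.453, 0.479 and 0.545 FPKM (log2 fold change -3.40). These genes went from clear to near-absent levels in all 3 libraries. B3galnt1, a glycosphingolipid enzyme, Lgr4, a receptor for R-spondins, Sirpa, a receptor for CD47, and Wfdc2, a secreted WAP-domain protein, had fold changes of -3.77, -3.45, -3.25 and -3.20. Mmp2, Sfrp1, Dhrs9 (a retinol dehydrogenase), Sulf1 (a heparan sulfate sulfatase) and Gpr39 (a zinc-sensing receptor) made up the rest of the 15, at -2.81 to -3.09.

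**Figure D1:**
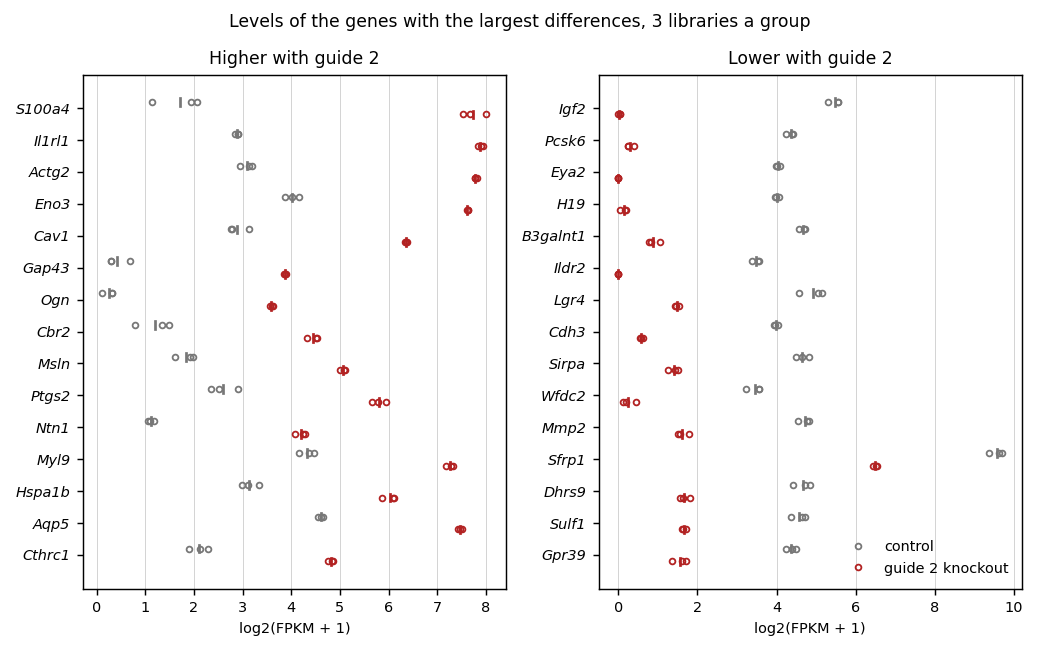
Levels in each library (open circles) and group means (bars), on a log2(FPKM + 1) axis, for the 15 genes with the largest rises (left) and falls (right) with guide 2; grey is control and red is guide 2 knockout. No guide 2 library overlaps a control library in any of the genes shown, which is part of how they were chosen.

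Several genes with high levels changed by at least 1 log2 unit. Lgals1, galectin 1, rose from 430, 417 and 529 FPKM to 1279, 893 and 906 FPKM, and Pfn1, the actin-binding protein profilin 1, from 234, 240 and 241 FPKM to 583, 545 and 526 FPKM. S100a6 and Igfbp4 rose by 1.40 and 1.22. In the other direction Slpi, a secreted inhibitor of leukocyte proteases, fell from 1445, 1479 and 1272 FPKM to 295, 257 and 238 FPKM (log2 fold change -2.41). Its guide 1 mean was lower still, at 40.8 FPKM. Sfrp1, a secreted Wnt antagonist, fell from 831, 785 and 656 FPKM to 86.1, 91.3 and 89.7 FPKM (log2 fold change -3.07). Aebp1, a collagen-binding protein, fell by 1.26 and Timp3, a matrix-bound metalloprotease inhibitor, by 1.11.

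Smooth muscle type contractile genes were mostly higher with guide 2. These genes code for the actins, myosin light chains, tropomyosins and calponins of stress fibres, and many are textbook targets of serum response factor, which binds a short AT-rich element called the CArG box. Of 18 listed genes 14 were tested; 12 rose, Cnn1 fell and Tagln did not pass, and the list median was 0.86. RefSeq promoter windows (GRCm38.p6, 250 bases before to 50 after the start) were found for 12 list members, and Myl9, Vcl and Cnn2 held a CArG box on either strand, against 1.81% of all 27025 genes with a window and 1.78% of the tested genes. A match is a description of the letters and not evidence of binding. The list holds many such targets by its choice, so this share does not bear on guide 2. The 250 bases before the start of each are shown with the match in capitals, because all of these genes rose, as did most of the list.

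Promoters with a CArG box:
Myl9 (chr2:156775214-156775463, + strand): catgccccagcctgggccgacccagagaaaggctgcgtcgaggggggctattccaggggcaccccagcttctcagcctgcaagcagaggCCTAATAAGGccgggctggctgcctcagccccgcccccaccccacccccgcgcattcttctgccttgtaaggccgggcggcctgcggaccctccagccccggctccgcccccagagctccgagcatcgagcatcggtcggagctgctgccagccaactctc
Vcl (chr14:20929148-20929397, + strand): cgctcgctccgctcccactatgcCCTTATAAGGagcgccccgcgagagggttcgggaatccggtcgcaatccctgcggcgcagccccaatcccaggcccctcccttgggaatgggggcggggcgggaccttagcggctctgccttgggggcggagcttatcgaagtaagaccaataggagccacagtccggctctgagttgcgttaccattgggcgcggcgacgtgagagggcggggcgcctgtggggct
Cnn2 (chr10:79988350-79988599, + strand): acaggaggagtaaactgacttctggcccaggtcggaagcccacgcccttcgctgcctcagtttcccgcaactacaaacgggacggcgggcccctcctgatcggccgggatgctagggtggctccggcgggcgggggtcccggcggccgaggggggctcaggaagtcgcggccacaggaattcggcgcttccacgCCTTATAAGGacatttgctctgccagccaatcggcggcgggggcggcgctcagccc

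Myl9, the regulatory myosin light chain, whose match ends 151 bases before the start, rose from 19.6, 17.0 and 21 FPKM to 160, 154 and 144 FPKM (log2 fold change 2.93, SE 0.0727, adjusted p = 6.35e-10). Vcl, the focal adhesion protein vinculin, with a match 217 bases before the start, rose from 16.7, 14.6 and 17.9 FPKM to 41.0, 46.7 and 48.5 FPKM. Cnn2, a calponin, with a match 46 bases before the start, rose from 121, 124 and 132 FPKM to 208, 211 and 204 FPKM. Vcl and Cnn2 are named here for holding the element and not for the size of their change, which was 1.42 and 0.72.

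The rest of the contractile list did not move as a block. Acta2, smooth muscle alpha actin, rose from 209, 207 and 215 FPKM to 912, 915 and 895 FPKM (log2 fold change 2.11), with guide 1 at 1776 FPKM. Actg2 is close to Acta2 in sequence, so reads could be shared between them. Tpm1, a tropomyosin, rose by 1.12 and Lmod1, an actin nucleator of muscle, by 1.92. Cnn1, a calponin of differentiated smooth muscle, instead fell from 200, 200 and 196 FPKM to 82.8, 84.3 and 83.0 FPKM (log2 fold change -1.24), while guide 1 was at 193 FPKM. Tagln, the actin-binding protein transgelin, gave 8.88, 8.47 and 10.9 FPKM in control and 10.5, 10.7 and 10.1 FPKM with guide 2 (adjusted p = 0.13), and 246 FPKM with guide 1. Control and guide 2 overlapped for Tagln. Between the knockouts, the difference of guide 2 minus guide 1 was -4.43 for Tagln (adjusted p = 1.5e-10) and -1.20 for Cnn1 (adjusted p = 3.61e-09). Of the 26 tested genes for actin regulators and other cytoskeletal proteins, 13 rose and 5 fell, with a median of 0.19. Srf itself rose by 0.57, Pdlim5 (a PDZ-LIM adaptor) by 1.83 and Rnd1 (a small GTPase that loosens adhesion) by 1.58. Zyx, the focal adhesion protein zyxin, fell by 0.80 and Tubb6, a beta tubulin, by 0.92.

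Structural genes of the extracellular matrix were mostly higher. Of 23 tested matrix genes 16 rose and 5 fell, 11 of them up by at least 1 log2 unit, with a median of 0.96. Vcan, the proteoglycan versican, rose from 0.359, 0.416 and 0.466 FPKM to 7.04, 8.29 and 7.72 FPKM. Postn, the matricellular protein periostin, rose from 1.48, 1.60 and 0.815 FPKM to 7.15, 8.13 and 8.21 FPKM, with guide 1 at 1.61 FPKM. Fbn1 (fibrillin 1) and Ecm1 rose by 2.05 and 1.98. Genes of the basement membrane went both ways. Lama5 rose by 1.83, Col7a1 (the anchoring fibril collagen) by 1.33, Col4a1 by 1.13 and Col4a2 by 0.52, and each of these was higher still with guide 1, by 0.93 to 2.12 log2 units. Lama4 and Nid2 (nidogen 2) fell, at -0.74 and -0.54. Outside the basement membrane Fbln2 (fibulin 2) and Col5a1 fell, at -1.35 and -0.59. With the stricter limit of 5 FPKM, 10 matrix genes were called higher, since fewer genes were tested.

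Of 16 tested proteases and inhibitors, 3 rose and 10 fell, with a median of -0.42. The falls included both enzymes and inhibitors of breakdown, among them Slpi and Timp3. Mmp2, a gelatinase, fell from 27.0, 26.4 and 22.4 FPKM to 1.96, 2.45 and 1.83 FPKM (log2 fold change -3.09, SE 0.108). Adamts5, an aggrecanase, fell by 2.29. The urokinase gene Plau rose from 11, 11 and 12.5 FPKM to 29.4, 29.4 and 31.2 FPKM, and its receptor gene Plaur from 14.1, 14.3 and 13.6 FPKM to 28.9, 26.8 and 29.7 FPKM. Enzyme and receptor thus rose together while the gelatinase fell. With guide 1 they were higher, at 94.2 and 51.3 FPKM. The inhibitor gene Timp1 was not called (adjusted p = 0.111). Without a filter on low values 8 list members were called higher.

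Cell adhesion genes went both ways. Of 19 tested adhesion genes 10 rose and 7 fell (median 0.28). The hyaluronan receptor gene Cd44 rose from 31.3, 30.2 and 35.3 FPKM to 64.2, 69.8 and 73.3 FPKM, the fibronectin receptor subunit Itga5 by 1.09 and Itga3 by 0.45. Itgb1, the common beta subunit, gave 217, 204 and 201 FPKM in control and 201, 217 and 223 FPKM with guide 2 and was not called, nor was Itga6. The syndecan gene Sdc3 rose by 2.08, whereas Sdc4 fell by 0.51. Icam1, a ligand of leukocyte integrins, fell from 5.34, 4.67 and 4.65 FPKM to at most 0.0493 FPKM.

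Desmosome and junction genes, which hold epithelial cells together, had few rows. Of 8 tested desmosome genes 6 rose and 1 fell, with a median of 0.82. Pkp1 (plakophilin 1) rose from 1.32, 0.728 and 1.16 FPKM to 8.80, 9.11 and 9.39 FPKM, Pkp2 by 1.64 and Jup (plakoglobin) by 1.13. With the 5 FPKM limit 3 desmosome genes were called higher. Of 9 tested genes of other junctions 4 rose and 4 fell. Cdh3 was the largest fall of this list. Of 8 tested keratin and cornification genes 4 rose and 3 fell. Klf4, a factor of epidermal differentiation, rose by 1.70 and Sprr1a, an envelope protein, fell by 1.49. Krt18 was at 4.33, 3.5 and 3.27 FPKM in control and 6.06, 4.58 and 4.39 FPKM with guide 2, against 119 FPKM with guide 1; relative to its neighbouring genes its change was -0.13.

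Of 18 tested genes linked to epithelial-mesenchymal transition 12 rose and 4 fell (median 0.31). Apart from S100a4, the factor gene Snai2 rose from 14.2, 13.2 and 13 FPKM to 28.7, 30.5 and 30.5 FPKM, while Snai1 fell from 26.5, 28.2 and 29.1 FPKM to 17.7, 20.7 and 20.3 FPKM. These related factors moved in opposite directions. Twist2 rose by 0.92, Zeb2 was not called (adjusted p = 0.354) and Lox, the collagen cross-linking oxidase, fell by 1.01. Lox lies on chromosome 18 in a run of 27 consecutive genes, Eif3j2 to Hmgxb3, with a median of -0.71. The part of that run in the fall of Lox was not tested. Vim rose by 0.12 (adjusted p = 0.0217); quantile normalization turned it to -0.02 (adjusted p = 0.667).

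The insulin-like growth factor axis was called for every tested member. In this pathway IGF2 signals through the receptor IGF1R, secreted binding proteins hold the ligand, and GRB10 damps the receptor. Of 9 tested genes 4 rose and 5 fell. The risers were all binding proteins: Igfbp7, from 34.9, 34.4 and 34.4 FPKM to 168, 171 and 173 FPKM, Igfbp3, from 0.738, 0.889 and 0.970 FPKM to 11.2, 10.0 and 12.1 FPKM, Igfbp6, from at most 0.267 FPKM to at least 2.27 FPKM, and Igfbp4. Besides Igf2 and H19, the receptor gene Igf1r fell by 0.69 and Grb10 from 57.9, 53.7 and 55.3 FPKM to 8.43, 10.0 and 9.01 FPKM (log2 fold change -2.48). Igf2, H19 and Grb10 are imprinted genes. The guide 2 fall was larger than the guide 1 fall for Grb10 by 1.28 (adjusted p = 9.52e-08), and Igfbp7 was higher with guide 1, at 521 FPKM.

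Transcripts of cholesterol synthesis genes were lower almost throughout. The enzymes of this pathway turn acetyl-CoA into sterol by way of mevalonate. SREBP2, encoded by Srebf2, switches their genes on when membrane sterol is low. Of 25 tested genes 23 fell, 1 rose and 1 was not called, with a median of -0.64. Most falls were under 1 log2 unit. Early in the pathway Hmgcs1 fell from 72.2, 67.1 and 57.6 FPKM to 39.6, 43.3 and 42.3 FPKM. In the middle, Mvd fell by 1.10, Mvk by 0.81 and Fdft1, squalene synthase, by 0.79. Late enzymes fell too: Nsdhl by 1.12, Lss by 0.77 and Cyp51 by 0.70. Insig1, the sterol-sensing brake, fell by 1.00. Srebf2 was the riser, at 0.13 (adjusted p = 0.0338), but stood at -0.41 relative to its neighbouring genes.

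The third control was the lowest of the 3 controls in 22 of the 25 cholesterol genes, and its part in the result was not tested. Leaving out any 1 library left 20 to 23 genes called lower. The groups did not overlap in 23 of 25. Of 15 tested fatty acid synthesis genes 11 fell and 1 rose (median -0.36). Scd2, a stearoyl-CoA desaturase, fell from 420, 392 and 293 FPKM to 255, 283 and 272 FPKM, Fads2 by 0.83 and Acsl4 by 1.27. Srebf1 was not called, with overlapping libraries. The third control was the lowest control in 13 of these 15 genes too, and 9 to 11 were called lower when any 1 library was left out.

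Prostaglandin synthesis starts when phospholipase A2 frees arachidonate, which the cyclooxygenases PTGS1 and PTGS2 convert. Of 6 tested genes 4 rose and 2 fell, with a median of 1.24. Pla2g4a rose from 7.96, 7.09 and 7.88 FPKM to 21.5, 22.5 and 23.2 FPKM. Ptgs2 rose from 4.75, 4.07 and 6.49 FPKM to 49.9, 53.9 and 60.8 FPKM, and Ptgs1 from 3.07, 2.57 and 3.12 FPKM to 18.1, 19.8 and 19.6 FPKM. Abcc4, which exports prostaglandins, rose by 1.04. The terminal synthase gene Ptges fell by 0.60 and Ptges2 by 0.38. Transcripts for the release and cyclooxygenase steps were thus higher and those for the terminal E synthases lower. Relative to neighbouring genes, 4 of the 6 genes were called higher and 1 lower, so at most 1 of the E synthase falls was called in that setting.

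Of 33 tested cytokine, chemokine and NF-kB genes 20 rose and 10 fell (median 0.35). Lif, a cytokine of the interleukin 6 family, rose from 0.264, 0.308 and 0.317 FPKM to 6.90, 7.36 and 8.01 FPKM, and Cx3cl1, a membrane-bound chemokine, from 3.59, 3.77 and 3.06 FPKM to 19.7, 21.5 and 22 FPKM. Nfkbia, the feedback inhibitor of NF-kB, rose by 0.97, Ccl2 by 0.90 and Tnfaip3 by 0.85. Ccl2 and Tnfaip3 were higher with guide 1, at 13.2 and 13.1 FPKM against a guide 2 maximum of 2.13 and 2.78 FPKM. The chemokine gene Cxcl12 fell from 383, 379 and 357 FPKM to 112, 110 and 112 FPKM, and the fold changes of Osmr, the oncostatin M receptor, and Il6 were -1.73 and -0.44. With the 5 FPKM limit 9 genes of the list were called higher and 6 lower.

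Interferon response genes leaned the other way: of 16 tested 11 fell and 2 rose, with a median of -0.27. Psmb8, an immunoproteasome subunit, fell from 13.9, 13.6 and 14.2 FPKM to 7.72, 7.15 and 7.66 FPKM, with guide 1 at 1.17 FPKM. Zbp1, a sensor of Z-form nucleic acid, fell by 1.30 and Stat2 by 0.47. The 2 risers both belong to MHC class I: H2-D1 rose by 0.72 and B2m from 281, 267 and 243 FPKM to 351, 345 and 351 FPKM. Guide 2 lay significantly nearer to control than guide 1 for 11 of the called list members and further from it for 1. Over all 4529 called genes it was nearer in 1132 and further in 1649. Genes were filtered on guide 2 and control levels, so such counts cannot rank the knockouts. The third control was the lowest control in 14 of the 16 genes, and 8 to 11 were called lower when any 1 library was left out. Its part in the fatty acid and interferon results was not tested.

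**Figure D2:**
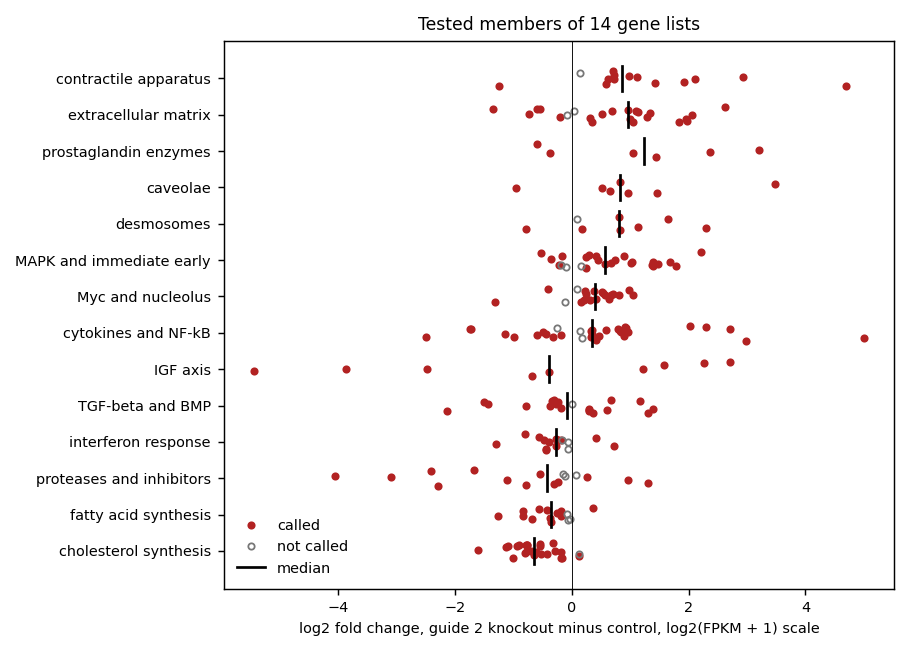
Log2 fold change of each tested member of 14 gene lists, guide 2 knockout minus control; filled points passed the test, open points did not, and the bar is the list median. Cholesterol synthesis lies almost wholly below 0 (23 of 25 lower), and the contractile list almost wholly above it (12 of 14 higher).

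Caveolae, the membrane pits coated by caveolins and cavins, had 7 tested genes, of which 6 rose and 1 fell (median 0.82). After Cav1 the largest rise was in Cav2, from 10.4, 9.97 and 10.1 FPKM to 28.5, 29.9 and 30.5 FPKM. Cavin1 rose by 0.51 and Cavin2 fell from 88.1, 83.1 and 82.8 FPKM to 41.6, 42.8 and 44.7 FPKM. Guide 2 lay significantly further from control than guide 1 for 5 of these genes, against 1649 of all 4529 called genes.

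Growth factor signalling genes were split between ligands that rose and ligands that fell. Of 16 tested receptor tyrosine kinases and ligands 8 rose and 5 fell. The EGF-family ligand gene Hbegf rose by 0.81, Vegfa by 0.59 and Egfr by 0.34. Pgf rose from 0.509, 0.494 and 0.346 FPKM to 2.37, 1.80 and 2.54 FPKM, against 39.8 FPKM with guide 1. Gas6, the ligand of AXL, fell from 252, 250 and 197 FPKM to 57.6, 60.4 and 56.9 FPKM, while Axl rose by 0.23. Fgf23 fell from 24.6, 24.7 and 20.9 FPKM to 4.77, 6.09 and 5.33 FPKM and Fgf2 by 1.61. Of 25 tested MAP kinase feedback and immediate early genes 18 rose and 4 fell (median 0.57), 9 of them by at least 1 log2 unit. Egr1 rose from 2.23, 1.84 and 2.94 FPKM to 13.4, 14.9 and 14.9 FPKM, Fosl1 by 1.78, Nr4a1 by 1.68 and Phlda1 by 1.47. The ERK phosphatase gene Dusp6 fell by 0.35 and Spry2 was not called.

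Of 12 tested targets and partners of YAP, the effector of the Hippo pathway, 8 rose and 2 fell (median 0.29). Ccn1 rose from 348, 329 and 404 FPKM to 673, 681 and 702 FPKM, and Ccn2 from 56.1, 51.2 and 72.3 FPKM to 80.8, 80.2 and 87.0 FPKM. Ccn2 stood at 635 FPKM with guide 1, a difference between the knockouts of -2.92 (adjusted p = 1.56e-08). Amotl2 was not called (adjusted p = 0.195).

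Of 20 tested TGF-beta and BMP genes 9 rose and 10 fell (median -0.09). Among ligands, Bmp4 rose from 13.4, 12.8 and 16.4 FPKM to 31.1, 35 and 33.2 FPKM, Inhba by 1.31 and Tgfb1 by 0.61, and Tgfb2 fell from 33.7, 32.7 and 28.6 FPKM to 10.3, 10.5 and 10.8 FPKM. The BMP antagonist gene Grem1 rose by 1.39. Among the Id genes, textbook targets of BMP signalling, Id4, added after its value was seen, was not called (-0.09, adjusted p = 0.413), and both others tested fell: Id2 from 19.3, 19.3 and 21.2 FPKM to 3.96, 3.40 and 4.03 FPKM, and Id3 from 190, 183 and 190 FPKM to 71.0, 67.1 and 67.2 FPKM. Guide 1 held 18 FPKM of Id2 and 170 FPKM of Id3, and the differences of guide 2 minus guide 1 were -1.99 (adjusted p = 2.55e-08) and -1.30 (adjusted p = 1.22e-08).

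Of 15 tested Wnt pathway genes 5 rose and 5 fell, and relative to neighbouring genes 2 were higher and 7 lower. Wnt6 was listed at 0 in all 3 controls and stood at 4.26, 4.19 and 3.94 FPKM with guide 2, against 0.0296 FPKM with guide 1. Sfrp1, Lgr4 and Wnt5b were the largest falls, the last from 9.49, 9.17 and 6.05 FPKM to 1.58, 2.12 and 1.45 FPKM. The receptor gene Lrp5 fell by 0.96 and Dkk3 was not called. Without a filter 9 Wnt genes were called higher. Of 19 tested developmental and Notch genes 5 rose and 11 fell (median -0.30). Pitx1 fell from 103, 98.0 and 104 FPKM to 28.1, 30.7 and 31.2 FPKM with guide 1 at 86.4 FPKM and Sox9 by 0.91. The Notch ligand gene Jag1 rose by 1.36 and the target Hes1 by 0.97, whereas the target Hey1 fell by 1.74. Sox2 fell by 0.44.

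Myc and nucleolar genes rose in small steps: of 20 tested 16 rose and 2 fell, with a median of 0.40. Myc itself rose from 41.2, 37.8 and 43.8 FPKM to 54.7, 60.3 and 61.7 FPKM (log2 fold change 0.515). It lies on chromosome 15, whose genes had a median of 0.48. The 24 consecutive genes that include Myc, Tmem65 to Ly6c1, had a median of 0.31, and those that include Bop1, Top1mt to Rbfox2, 0.59. The part of the chromosome in these rises was not tested. Nop56, of the small nucleolar ribonucleoproteins, rose by 0.71, Bop1, of ribosome assembly, by 1.04 and Odc1, of polyamine synthesis, by 0.38. The falls were in the Myc antagonists Mxd4 and Mxd1, at -1.32 and -0.41. Of 35 tested ribosomal protein genes 5 rose and 9 fell (median -0.02). Ribosomal proteins have many near-identical copies, so their values are uncertain. Rpsa rose from 347, 344 and 346 FPKM to 667, 622 and 612 FPKM.

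Cell cycle genes changed little in either direction. Of 34 tested genes of G1 and S phase 14 rose and 10 fell (median 0.03). Ccnd1 rose from 89.1, 89.2 and 107 FPKM to 133, 126 and 131 FPKM, while Ccnd2 fell from 64.9, 62.5 and 69.8 FPKM to 29.3, 28.9 and 31.5 FPKM. Helicase and loading factors rose, Mcm2 by 0.52, Mcm4 by 0.69 and Cdt1 by 0.60, and the inhibitor gene Cdkn1b fell by 0.67. Of 21 tested genes of G2 and mitosis 4 rose and 9 fell (median -0.15), all by less than 0.5. Of 15 tested p53 genes 8 rose and 2 fell. Trp53 rose from 39.8, 37.7 and 43.4 FPKM to 91.9, 96.2 and 96.6 FPKM, and its targets Plk2 and Sesn2 rose by 1.42 and 0.48, whereas Ccng1 fell by 0.45 and Fas by 0.66.

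Heat shock genes are switched on by HSF1 through an element with the core letters GAANNTTC. Of 16 tested chaperone genes 9 rose and 4 fell (median 0.22). Of 12 list members with a promoter window 5 held these letters on either strand (Hspa1a, Hspa1b, Hspb8, Dnaja1 and Bag3), against 9.04% of all genes with a window and 6.49% of tested genes. The windows of Hspa1a and Hspa1b, the inducible HSP70 pair, are shown because these genes rose most and their sequences are nearly the same.

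Promoters with a heat shock element core, in capitals:
Hspa1a (chr17:34972157-34972406, - strand): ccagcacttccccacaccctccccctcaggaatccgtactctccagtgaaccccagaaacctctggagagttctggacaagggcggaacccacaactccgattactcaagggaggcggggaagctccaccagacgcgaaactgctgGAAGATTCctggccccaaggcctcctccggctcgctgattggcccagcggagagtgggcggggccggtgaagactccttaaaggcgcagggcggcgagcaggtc
Hspa1b (chr17:34959239-34959488, - strand): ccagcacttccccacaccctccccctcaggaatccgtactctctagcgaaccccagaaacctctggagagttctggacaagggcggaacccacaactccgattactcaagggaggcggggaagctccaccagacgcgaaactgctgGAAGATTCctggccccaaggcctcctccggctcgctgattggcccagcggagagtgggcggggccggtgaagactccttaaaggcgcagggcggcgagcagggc

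The pair of sequences differ at 3 of 250 positions, and both matches end 96 bases before the start. Hspa1b rose from 7.60, 6.94 and 9.08 FPKM to 57.1, 67.6 and 68.1 FPKM (log2 fold change 2.88, SE 0.101, adjusted p = 5.09e-09). Hspa1a rose from 4.87, 4.29 and 4.52 FPKM to 18.8, 21.8 and 20.1 FPKM (log2 fold change 1.93). Their transcripts are also near-identical, so the split of reads between them is uncertain. The other holders of the core did not follow: Hspb8 fell by 0.76, Dnaja1 fell by 0.28 (0.05 relative to its neighbouring genes), and Bag3 was not called (adjusted p = 0.558). Dnajb4 rose by 1.81 and Hsp90aa1 by 0.20. For AP-1, the site of Fos and Jun dimers, the letters TGANTCA were in 2 of the 12 contractile and 2 of the 12 chaperone windows, against 8.97% of all and 5.56% of tested genes.

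Of 6 tested histone genes, which also have near-identical copies, 4 rose and 1 fell. H1f2 rose from 3.54, 2.79 and 2.25 FPKM to 21.7, 23.5 and 19.9 FPKM. Replication-dependent histone transcripts lack a poly(A) tail, and poly(A) selection was used. Of 23 tested glycolysis and hypoxia genes 14 rose and 4 fell (median 0.34). After Eno3, the glucose transporter gene Slc2a1 rose from 14.3, 14.5 and 14.7 FPKM to 27.6, 28.4 and 29.4 FPKM. Ldha rose by 0.18, Hk2 was not called, and Pfkfb3 and Bnip3 fell by 1.04 and 0.57. Of 22 tested redox genes 14 rose and 5 fell (median 0.33). Gsta4 rose by 1.63, Gsto1 by 1.31 and Gclc, of glutathione synthesis, by 0.69. Gsta1 was listed at 0 in all controls and at 3.18, 3.21 and 2.25 FPKM with guide 2. The thioredoxin gene Txn1 fell by 0.80 and Gclm was not called. Aldh3a1, an aldehyde dehydrogenase, rose from 1.12, 1.02 and 1.20 FPKM to 11.2, 12.9 and 11.8 FPKM.

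Of 28 tested genes of the integrated stress and unfolded protein responses 14 rose and 7 fell (median 0.11). Trib3 rose from 4.66, 4.68 and 4.72 FPKM to 18.3, 19.5 and 17.6 FPKM, Ddit3 by 1.10, Chac1 by 0.77 and Atf4 by 0.51. Xbp1, of the endoplasmic reticulum branch, fell by 0.58 and the chaperone gene Canx by 0.50. Of 35 tested respiratory chain genes 20 fell and 5 rose (median -0.24), led by Ndufc2 at -1.07. Of 26 tested lysosome and autophagy genes 14 fell and 9 rose (median -0.17). Map1lc3a fell from 59.7, 58.3 and 54.6 FPKM to 14.5, 14.8 and 13.9 FPKM and the protease gene Ctsd by 0.79, while Sqstm1 rose by 0.28.

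Markers of other cell types were low where they had a row, with a few exceptions. The levels of markers without a row are not known here. Of 15 fibroblast markers 5 had a row and 2 were tested, Postn and Twist2, both higher. The summed level was 3.7 to 4 FPKM in control and 14.3 to 15.2 FPKM with guide 2. Col1a2 was at 0.0139 FPKM in control and 0.827 FPKM with guide 2, and Dpt was listed at 0 with guide 2. The part of these values in the rise of matrix genes was not tested. Of 14 glandular markers 8 had a row. These summed to 25.9 to 27.9 FPKM in control and 175 to 188 FPKM with guide 2. Nearly all of it was Aqp5, which rose from 23.4, 22.4 and 24.2 FPKM to 181, 171 and 177 FPKM. The salivary markers Muc5b, Smr3a and Bhlha15 were listed at 0 with guide 2. With guide 2, leukocyte markers (3 of 20 with a row) summed to at most 2.67 FPKM and endothelial markers (5 of 11) to at most 3.05 FPKM. Muscle markers (6 of 13) summed to at most 0.0894 FPKM and neural markers (6 of 15) to at most 4.78 FPKM. In the neural list Nes rose by 1.59, in the leukocyte list Cd68 by 0.94, and of 2 tested endothelial genes Egfl7 rose and Erg fell. Among 6 tested squamous markers 2 rose, Pkp1 and Sfn, and Pitx1 fell.

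The differences were not spread evenly over the genome. Symbols were placed on chromosomes with RefSeq GRCm38.p6, and 4514 placed genes with a mean of at least 5 FPKM were summarised, of which 32.7% were called higher and 37.3% lower. Chromosome medians with guide 2 ranged from -0.37 on chromosome X to 0.48 on chromosome 15. On chromosome 15, 210 of 264 genes were called higher (79.5%) and 30 lower. The 3 guide 2 libraries each gave nearly the same median there, 0.45, 0.48 and 0.48. Over 20 chromosomes, medians of single control libraries lay between -0.02 and 0.03. These were differences from the mean of the same control libraries, which by itself keeps them small. Chromosome 5 went the other way, with 323 of 425 genes called lower (76.0%), 15 higher and a median of -0.32. On chromosome X 79 of 115 genes were called lower, and on chromosome 18, with a median of -0.32, 68 of 108. Chromosomes 16 and 17 had medians of 0.25 and 0.20, and chromosomes 7 and 10 medians of 0.02 and -0.01.

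**Figure D3:**
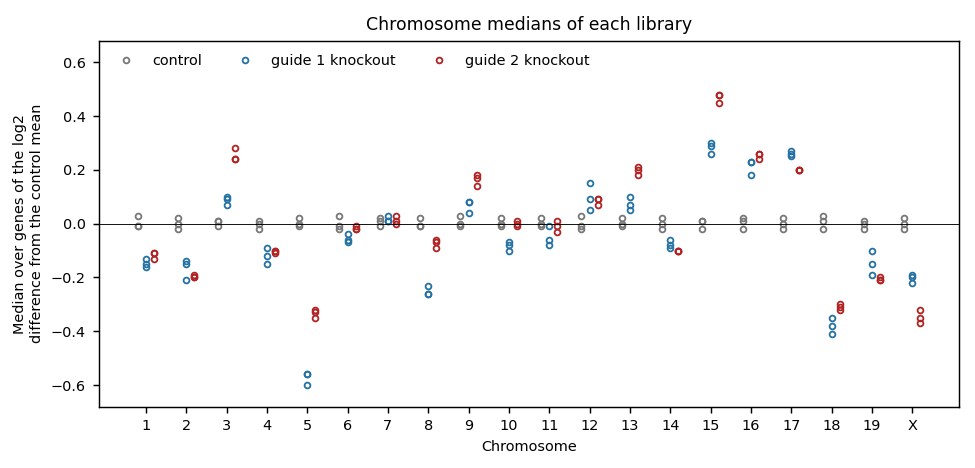
Median log2 difference from the control mean over genes of each chromosome (5 FPKM or more), 1 point a library; grey is control, blue guide 1 and red guide 2. Control libraries stay between -0.02 and 0.03, and the 3 guide 2 libraries sit together, highest on chromosome 15 at 0.45 to 0.48. The control mean is made from the control libraries shown, which by itself keeps their differences small.

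Within chromosomes the shifts came in blocks of neighbouring genes. Of 180 windows of 23 to 27 consecutive genes, 17 had a median of at least 0.4 and 13 a median of at most -0.4, and in 28 windows over 80% of genes were called the same way. The highest window median was on chromosome 11: from Senp3 to Ube2g1, 24 of 26 genes were called higher and the median was 0.82, with 0.16 in guide 1. This window held Pfn1, Eno3 and Gabarap. Elsewhere on chromosome 11 the windows from Eif4enif1 to Aldh3a1 had medians of -0.34 to -0.21. The lowest window median, -0.71, was on chromosome 18 from Eif3j2 to Hmgxb3, with -0.69 in guide 1. Lox was in this window. On chromosome 9, the windows from Plscr2 to Limd1 had medians of 0.76, 0.62 and 0.62, with 23, 25 and 24 of 25 genes called higher and none lower, while the windows from Aasdhppt to Dpagt1 had medians of -0.44 and -0.46. With guide 1 the same windows of chromosome 9 had medians of 0.25, 0.16 and 0.21, then -0.19 and -0.21. Blocks in the middle of chromosome 3 (Gm10705 to Snapin, 0.58 and 0.52) and at the far end of chromosome X (Gm14760 to Hccs, -0.55 and -0.61) had the same character.

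Csmd3 lies on chromosome 15 in this annotation, between the measured genes Ebag9 and Eif3h. The last 25 measured genes before it had a median of 0.51, with 23 called higher, and the first 25 after it a median of 0.55, with 19 called higher. In guide 1 these medians were 0.35 and 0.26. The shift thus spanned both sides of the targeted gene, and the first window of the chromosome, from Selenop to Ank, did not share it (-0.05). Because the table holds almost only genes with a shared direction, guide 1 values of these blocks are not independent of the guide 2 values. What underlies the blocks was not tested.

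**Figure D4:**
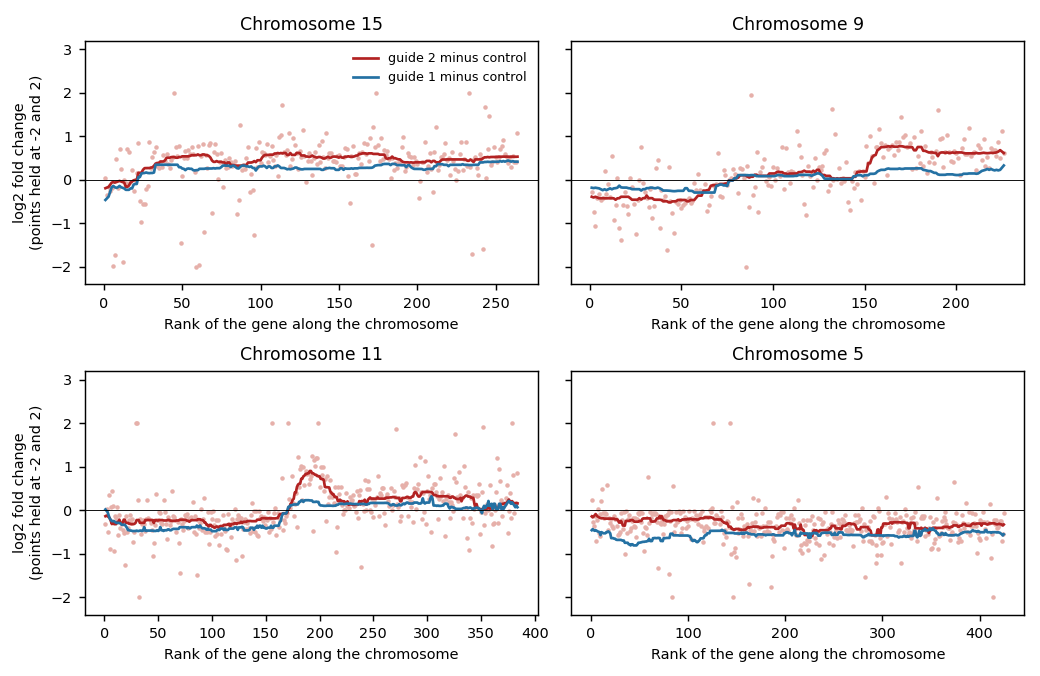
Log2 fold change of genes with 5 FPKM or more in their order along 4 chromosomes; points are guide 2 minus control, held at -2 and 2, and lines are running medians of 25 genes for guide 2 (red) and guide 1 (blue). The red line jumps within chromosomes 9 and 11, where windows reach 0.76 and 0.82, and stays above 0 over most of chromosome 15.

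The gene lists were therefore recomputed relative to the 25 tested genes on either side of each gene, a setting chosen after seeing the data. In that setting the contractile list had 13 of 14 genes higher and 1 lower, with a median of 0.96. Cholesterol synthesis had 22 of 25 genes lower and 1 higher, with a median of -0.70. Matrix had 15 higher and 5 lower, and Myc genes 15 of 19 higher and 2 lower. Other counts moved by over 1.5 times: G2 and mitosis genes went from 9 to 1 called lower, stress response genes from 14 to 7 higher, respiratory genes from 20 to 11 lower and from 5 to 1 higher, ribosomal genes from 5 and 9 to 2 and 2, TGF-beta genes from 10 to 5 lower, keratin genes from 4 to 1 higher and lysosome genes from 9 to 4 higher. Wnt genes went from 5 to 2 higher, G1 and S phase genes from 10 to 6 lower, junction genes from 4 to 2 lower, p53 genes from 2 to 4 lower and prostaglandin genes from 2 to 1 lower. Desmosome and histone genes went from 1 to 2 lower, fatty acid genes from 1 to 2 higher, and among markers leukocyte genes from 1 to 0 higher, glandular genes from 2 to 1 higher and squamous genes from 1 to 2 lower. For single genes, Trp53 was 0.69 instead of 1.22, Pfn1 0.56 instead of 1.20 and Eno3 2.99 instead of 3.61. Gabarap, Ctnnb1, Krt18 and Sox4 changed sign. S100a4, at 5.60, and Igf2, at -5.32, changed little.

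The knockouts were also compared with each other. Of the 4529 genes called for guide 2 against control, guide 2 lay significantly further from control than guide 1 in 1649 and nearer in 1132. No difference between the knockouts was called in 1748. These genes were chosen by their guide 2 change and by their levels in guide 2 and control. Genes high mainly with guide 1, such as Mycl at 9.07 FPKM, fell below the filter, so the counts cannot rank the knockouts. The largest excesses of guide 2 over guide 1 were in Gap43 (guide 1 mean 0.534 FPKM against at least 13.4 FPKM with guide 2), Ogn, Aldh3a1, Msln and Ramp3, a partner of calcitonin-family receptors, which rose from 15.4, 15.4 and 19 FPKM to 105, 95.2 and 98.2 FPKM with guide 1 at 24.6 FPKM. Wfdc2 fell from 8.37, 10.8 and 10.8 FPKM to at most 0.362 FPKM with guide 1 at 7.94 FPKM. Nkx2-5, a homeobox gene best known from the heart, fell from 22.7, 21.3 and 25.1 FPKM to 2.66, 2.96 and 2.38 FPKM with guide 1 at 16.4 FPKM. Cyba, a subunit of the NADPH oxidases, fell from 97.9, 95.0 and 90.8 FPKM to 22, 18 and 17.4 FPKM with guide 1 at 78.2 FPKM. These tests compare 3 libraries of 1 knockout with 3 of the other.

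**Figure D5:**
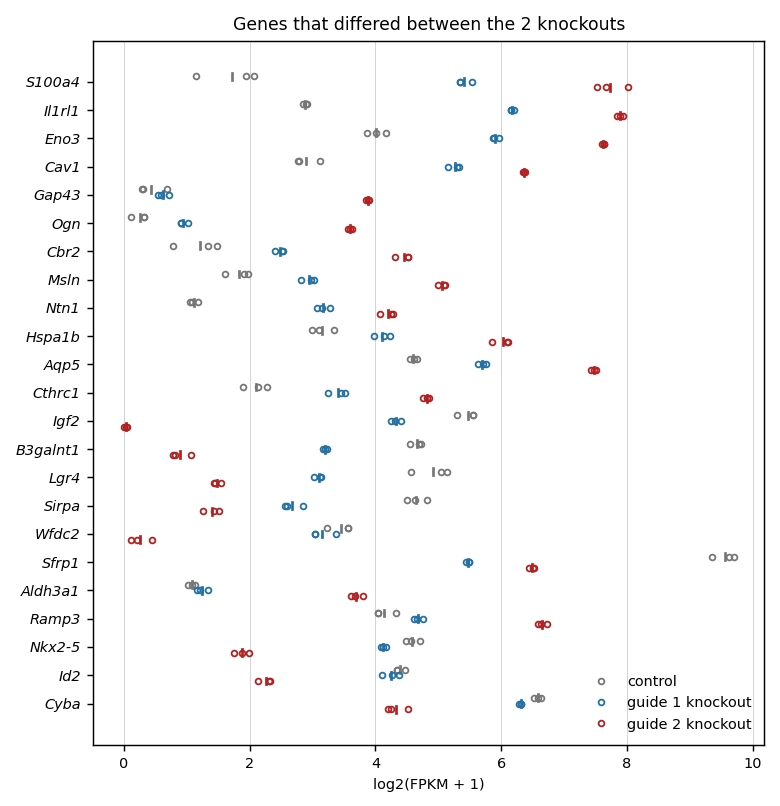
Levels in each library (open circles) and group means (bars) on a log2(FPKM + 1) axis. Grey is control, blue guide 1 and red guide 2. The genes had a called difference of at least 1 log2 unit between the knockouts. They were taken for large guide 2 changes or for guide 2 lying further out than guide 1. For Gap43, Aldh3a1, Wfdc2, Id2 and Cyba the guide 1 libraries sit near control while the guide 2 libraries stand apart.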

How the data were processed

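Polyadenylated RNA of ROC6 cells was sequenced from both fragment ends with a strand-keeping kit, per the labels' protocols. The authors deposited 1 FPKM value for each gene in each library, per the file headers. Tools named in the submitters' processing notes are HISAT2, StringTie, cutadapt and FastQC, and the genome build is not given in the sources used here. Since FPKM does not keep read totals, depth is unknown and count models were not fitted. The number of other per-sample columns was 0. The 174 rows sharing 62 symbols were left out.

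Values were log2(FPKM + 1) transformed and fitted with limma 3.58.1 (R 4.3.3), with a mean-dependent prior variance, over all 9 libraries in 3 groups, because 3 libraries a group give few degrees of freedom. Guide 2 was tested against control and against guide 1, and p-values were Benjamini-Hochberg adjusted over 6920 genes. Errors of fold changes are model SEs. On simulated data for guide 2 against control over 6920 genes, 88% of genes changed by 0.5 log2 units were recovered and 98.5% of those changed by 1. False calls were 3.83% and 5.74% of all calls. The simulation changed 200 genes, far fewer than the 4529 called in the data. Its noise was independent between genes, without blocks of neighbouring genes, so these rates may not hold for the data.

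Genes were named if they were the 15 largest called changes in each direction among genes averaging at least 5 FPKM whose groups did not overlap, the 6 largest between guides, the 6 with the highest levels changed by 1 log2 unit, key members of 41 gene lists, or the 4 largest called list members in each direction. Predicted genes were passed over, and not all genes the rule names are printed. Members and lists were chosen with earlier results of these data known, so lists are described by counts and medians and are not tested. Promoter windows and gene order came from RefSeq GRCm38.p6, in which 6607 tested genes were placed by symbol; coordinates are given only for the printed sequences. Alternatives were other pseudocounts, filters, scalings, prior variances, a replicate block, fewer libraries and values relative to neighbouring genes.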

Additional observations from a re-analysis of the deposited data

Results flagged for a closer look

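A total of 23 genes among those with the largest changes were singled out because the difference between the 2 knockouts passed limma's test and reached 1 log2 unit. Values are guide 2 minus guide 1 on the log2(FPKM + 1) scale, with 3 libraries each, and in each gene the 3 guide 2 libraries all lay on the same side of the 3 guide 1 libraries. Guide 2 was the higher of the knockouts, and further above control, for S100a4 (2.32), Il1rl1 (1.72), Eno3 (1.71), Cav1 (1.10), Gap43 (3.26), Ogn (2.65), Cbr2 (1.97), Msln (2.12), Ntn1 (1.03), Hspa1b (1.91), Aqp5 (1.77), Cthrc1 (1.41), Aldh3a1 (2.46) and Ramp3 (1.97). Guide 2 was the lower, and further below control, for Igf2 (-4.29), B3galnt1 (-2.31), Lgr4 (-1.62), Sirpa (-1.27), Wfdc2 (-2.90), Nkx2-5 (-2.25), Id2 (-1.99) and Cyba (-1.98). Sfrp1 had the other order, with guide 2 above guide 1 by 1.02 although both were below control. All 23 genes were taken for large guide 2 changes or for guide 2 lying further out, so the choice favoured this direction. Tagln and Ccn2, described above, are not among them and lay further from control with guide 1, by over 1 log2 unit.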

How the results depend on the processing

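For guide 2 against control, genes called numbered 4529 of 6920 tested. The filter of 5 FPKM gave 3273. It gave 151 genes called and at least 1 log2 unit higher and 180 genes called and at least 1 log2 unit lower, below the 282 and 298 because fewer genes were tested. No filter gave 5284 calls. A pseudocount of 0.1 FPKM gave 399 and 366 genes past 1 log2 unit. Under the scalings, prior variance, sample choices and left-out libraries tried, each of these counts stayed within 1.5 times of its value. Leaving out 1 library gave 4182 to 4477 calls. For guide 2 against guide 1, genes called ranged from 3317 to 3836.

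Same-numbered guide 2 and control libraries deviated from their group means with correlations of -0.105, 0.0613 and -0.0962, so these values show no pairing of guide 2 with control. For same-numbered guide 1 and guide 2 libraries the correlations were 0.238, 0.0178 and 0.215. Unlike-numbered libraries of the knockouts gave -0.237 to 0.0453. What lies behind this difference was not tested, and the main comparison of guide 2 with guide 1 was unpaired. With a replicate block, guide 2 against control, genes called were 4526.

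Relative to neighbouring genes, a setting chosen after seeing the data, guide 2 against control, genes called were 3543. Of the 4360 calls with a value there, 2779 kept call and sign and 137 were called with the opposite sign. Among named genes the sign turned for Amotl2 (-0.56), Ctnnb1 (-0.06), Cyc1 (-0.22), Dnaja1 (0.05), Espl1 (-0.07), Gabarap (-0.16), Hspa4 (0.26), Krt18 (-0.13), Krt80 (-0.12), Perp (-0.17), Psat1 (0.01), Rac1 (0.02), Racgap1 (-0.13), Rps14 (0.21), Sox4 (-0.06), Spred2 (0.05), Srebf1 (0.23), Srebf2 (-0.41). Quantile normalization turned Vim (-0.02); the cause was not tested. Depth is unknown, so the counting error of values near 0 FPKM cannot be given.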
